A study of Rattus norvegicus with 12 samples.

Results

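The collagen genes of the rat were taken as every row of the deposited expression table with a gene name of the form Col, number, a, number and an average signal over the 12 libraries that reached 1. This gave 43 of 19230 rows: 11 fibrillar collagen genes (types I, II, III, V, XI, XXIV and XXVII), 8 of basement membrane collagens (types IV, XV and XVIII) and 24 of other types. Of 44 rows with such a name, Col25a1 fell just outside, with values of 0 to 2.30 over the 12 libraries, and Col2a1 and Col9a1 were just inside, with means of 1.89 and 2.04. The names and this low floor chose the members, and Col9a1 reached the floor only through the ECs. 3 members were rows shared with other names: Arfgap1,Col20a1, Col6a5,Col6a6 and Col7a1,Mir711,Ucn2. Such a row speaks for its genes together and for none of them alone.

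The study sequenced RNA of lung and of endothelial cells (ECs) from Sprague-Dawley rats and concerns Ahr, the aryl hydrocarbon receptor, which on binding a ligand enters the nucleus and induces genes of xenobiotic metabolism. There were 4 groups of 3 libraries: whole lung with the label Ahr-KO after 4 days of SuHx, whole lung of wild-type (WT) rats after 4 days of SuHx, whole lung of WT rats in normoxia at day 0, and ECs of WT rats in normoxia, for which the labels write day 4 and the column names 0. SuHx is the combination of Sugen (SU5416, an inhibitor of the VEGF receptor) with hypoxia, a standard rat model of pulmonary arterial hypertension, in which the muscular wall of small lung arteries thickens. No Ahr-KO lung in normoxia and no lung given SU5416 or hypoxia alone were among the samples, so an effect of genotype without SuHx was not measured and the agents cannot be told apart. The labels do not give age, sex or dose, how the ECs were isolated, or whether a library is 1 animal or a pool.

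Collagens are triple helices of 3 chains, each chain from its own gene, and are the main structural proteins of the extracellular matrix. Fibrillar collagens assemble into the tensile fibrils of vessel walls, airways and pleura, where type I and type III dominate and type V controls fibril diameter. Type IV forms the sheet of the basement membrane under endothelium and epithelium, with the Col4a1 and Col4a2 chains present in nearly all tissues and the Col4a3, Col4a4 and Col4a5 chains typical of alveolar and glomerular membranes. Type VI forms beaded microfilaments that link cells to the fibrils. In the lung most collagen is made by fibroblasts and smooth muscle cells, and endothelial and alveolar cells add basement membrane.

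Values are a signal of unstated unit that behaves like an estimated read count divided by 1 factor per library. Each set of 3 values runs in the order of the column suffixes 0, 1 and 2. Libraries held 20.6 to 27.1 M of signal. Fold changes are on the log2(signal + 1) scale with their standard error (SE), and a gene was called at an adjusted p under 0.05 in limma, fitted over all rows. The signal of Ahr itself was 1800.0 to 2523 in the lungs labelled Ahr-KO, against 1739.6 to 3073 in WT SuHx lungs, and overlapped. The labels do not say which part of Ahr was deleted, so the Ahr level does not check the genotype, which is used here as labelled. Cyp1a1, the classical Ahr target, had a signal of 3.87 to 5.32 in the lungs labelled Ahr-KO and of 65459 to 75070.5 in WT SuHx lungs. Ahr-KO library 2 and normoxia library 2 stood apart in markers of heart muscle and airway secretion: the airway marker Bpifa1 reached 28979.8 and 1231 there, against 0 to 116 in the other 7 lungs, and the summed cardiac markers 27946 and 12701, against 892 to 7539 in those 7.

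The comparison of lungs labelled Ahr-KO with WT lungs, both at day 4 of SuHx, asked whether the collagen genes depend on the genotype under SuHx. The minor fibrillar genes Col5a3 and Col27a1 were lower in Ahr-KO lungs, while the chains of types I, III, IV and VI were not called. Col5a3 encodes the α3 chain of type V, a regulator of fibril assembly that can replace another chain of the type V helix. Col27a1 encodes a fibrillar collagen known mostly from cartilage. The promoter stretches of both genes are shown as a description only, and binding of Ahr to them was not tested. The stretch of Col16a1 is shown beside them, although it was not called between the genotypes (limma, adjusted p = 0.118). Each line gives the 250 bases before the annotated start, 5′ to 3′ along the gene's own strand, from RefSeq on the GRCr8 build, which is not the rn6 build of the files. Capitals mark GCGTG or its reverse complement CACGC, the core bases of the motif bound by Ahr with its partner Arnt.
Col5a3, chr8:27625949-27626198, minus strand: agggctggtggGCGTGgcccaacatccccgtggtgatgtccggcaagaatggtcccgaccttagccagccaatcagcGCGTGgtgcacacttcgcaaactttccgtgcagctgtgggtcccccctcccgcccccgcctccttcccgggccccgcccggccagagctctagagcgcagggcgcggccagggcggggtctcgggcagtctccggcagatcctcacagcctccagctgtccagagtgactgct
Col27a1, chr5:81662658-81662907, plus strand: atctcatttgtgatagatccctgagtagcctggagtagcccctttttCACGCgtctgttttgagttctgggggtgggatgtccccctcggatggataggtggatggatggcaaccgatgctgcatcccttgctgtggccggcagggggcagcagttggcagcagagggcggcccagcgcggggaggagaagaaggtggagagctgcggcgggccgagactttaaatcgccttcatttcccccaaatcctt
Col16a1, chr5:147672846-147673095, plus strand: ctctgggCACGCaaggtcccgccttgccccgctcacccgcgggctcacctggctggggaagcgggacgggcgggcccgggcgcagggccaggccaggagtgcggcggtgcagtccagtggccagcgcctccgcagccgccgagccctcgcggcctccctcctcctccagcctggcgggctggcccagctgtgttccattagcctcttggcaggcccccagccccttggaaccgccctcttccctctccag
GCGTG was searched on both strands. It occurs 2 times in the Col5a3 stretch, 239 and 173 bases before the start, and 1 time each in those of Col27a1, 203 bases before it, and Col16a1, 243 bases before it. The same letters were found in 25.9% of all 33469 promoters of this length in the table and in 15 of the 35 collagen genes with a promoter there, which include Col4a1 and Col4a2, for which no difference between genotypes was called. Among other uncalled members lower in Ahr-KO without overlap, GCGTG was found for Col24a1 and Col26a1 and not for Col7a1, Col8a1 and Col17a1. The longer TNGCGTG was found in 4.09% of all promoters and in 2 of the 35 collagen genes, Col16a1 and Col28a1, and not in the stretches of Col5a3 and Col27a1. A match of this kind is a description of the letters and not a measured site.

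Col5a3 had a signal of 384, 373 and 306 in Ahr-KO SuHx lungs, against 1179, 1513 and 1492 in WT SuHx lungs. In normoxia lungs it was 172, 136 and 287. All 3 Ahr-KO libraries lay below all 3 WT SuHx libraries and above all 3 normoxia libraries. The log2 fold change of Ahr-KO over WT SuHx was -1.97 ± 0.25 (limma, adjusted p = 0.00917), a level 3.92-fold lower in Ahr-KO. Without WT SuHx library 2 the adjusted p was 0.05003, just above the threshold, at a log2 fold change of -1.92. Col27a1 had 406, 382 and 417 in Ahr-KO SuHx lungs, against 964, 1158 and 868 in WT SuHx lungs. Its normoxia values, 501, 441 and 390.3, overlapped with those of the Ahr-KO lungs. It was 2.46-fold lower in Ahr-KO than in WT SuHx lungs (log2 fold change -1.30 ± 0.14, limma, adjusted p = 0.00324), and this call held in all 18 alternatives run. Without the Ahr-KO and normoxia libraries 2, which had the highest cardiac sums, the log2 fold changes were -1.87 for Col5a3 and -1.33 for Col27a1, and both were called. The cardiac markers still summed to 7539 and 5904 in the remaining Ahr-KO libraries, against 2824 to 3665 in WT SuHx lungs, and their part in these results was not tested.

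**Figure D1:**
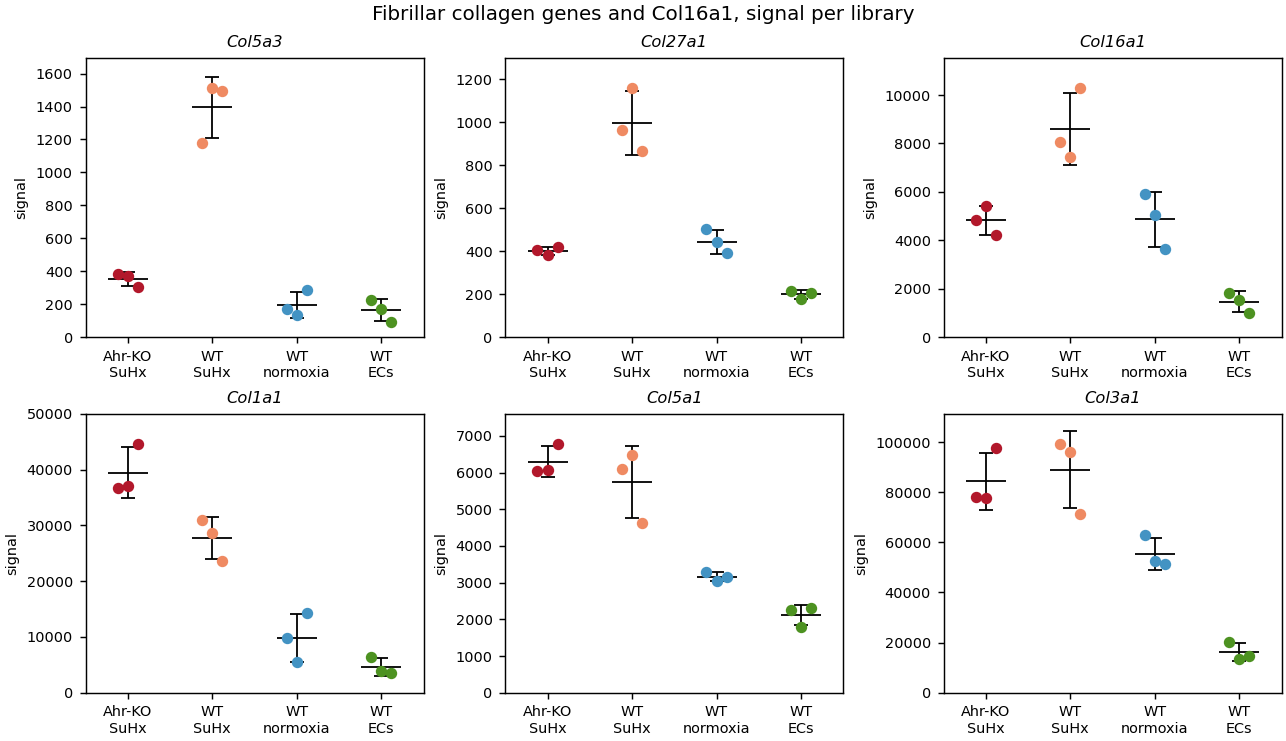
Signal of 5 fibrillar collagen genes and Col16a1 in each library. Points are libraries, horizontal bars the mean and vertical bars the SD of 3 libraries, with Ahr-KO SuHx lung, WT SuHx lung, WT normoxia lung and WT ECs along the x axis. Col5a3 and Col27a1 are highest in WT SuHx lung, while Col1a1 and Col5a1 lie above normoxia in both SuHx groups.

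These were the only members called between the genotypes: 2 of 42 tested were called, where 0.499% of all 15234 rows tested were called in either direction. Both were lower in Ahr-KO, where 0.302% of all rows were called lower. None was called higher in Ahr-KO in limma (0 of 42, against 0.197% of all rows), and none in any alternative run. At an unadjusted p under 0.05, 1 member was higher and 8 were lower in Ahr-KO. The share of all rows at this p was not counted, so these numbers show no trend of the collagens. The median log2 fold change over the 42 members was -0.0168, and 0.0206 over all rows. For 10 members the values of the 2 groups did not overlap. The share of all rows without overlap was not counted, so this number is no result about the collagens. Besides the called pair, 7 of these 10 members were lower in Ahr-KO. Col16a1, a collagen that sits on the surface of fibrils (a FACIT), had 4851, 5415 and 4218 in Ahr-KO SuHx lungs, against 8069, 7443 and 10291 in WT SuHx lungs (log2 fold change -0.83 ± 0.19, limma, adjusted p = 0.118). The row of Col7a1, the anchoring fibril collagen, with Mir711 and Ucn2 had 876, 772 and 822 in Ahr-KO, against 1429, 1325 and 1511 in WT SuHx lungs (adjusted p = 0.122, limma), and passed the threshold in 3 of the alternatives. Col6a2, Col8a1, Col17a1, Col24a1 and Col26a1 were the other 5, with adjusted p from 0.273 to 0.445 in limma.

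Col1a1, which encodes the main chain of type I collagen, was the remaining gene without overlap, and it was higher in Ahr-KO. Its signal was 36666, 37002 and 44658 in Ahr-KO SuHx lungs, against 30925, 28633 and 23606 in WT SuHx lungs, a log2 fold change of 0.51 ± 0.29 that was not called (limma, adjusted p = 0.459). Col3a1, the type III chain, overlapped between the genotypes, with 78134, 77636 and 97506 in Ahr-KO and 99398, 96057 and 71258 in WT SuHx lungs. For type IV, Col4a1 differed by a log2 fold change of 0.03 ± 0.21 and Col4a2 by 0.13 ± 0.20 between Ahr-KO and WT SuHx lungs, both with overlapping values and not called. Over the summed marker lists, the fibroblast markers were 37738 to 47385 in Ahr-KO and 33405 to 37812 in WT SuHx lungs, and the smooth muscle and pericyte markers 48290.0 to 73302 in Ahr-KO and 49408 to 71784 in WT SuHx lungs. None of the 12 genes of either list was called between the genotypes in limma, and none reached an unadjusted p under 0.05. The summed list of cartilage markers was 432 to 597 in Ahr-KO and 2621 to 3547 in WT SuHx lungs, a gap carried by Cytl1: the other genes of the list summed to 111 to 201 in Ahr-KO and 112 to 206 in WT SuHx lungs. Col2a1, the defining cartilage collagen, was at 0 to 10.6 in Ahr-KO and 0 to 2.23 in WT SuHx lungs. Of 11 cardiac markers limma called 0, with 7 higher and 0 lower in Ahr-KO at an unadjusted p under 0.05. In whole lung, fewer cells of a type and less RNA per cell cannot be told apart.

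WT lungs at day 4 of SuHx were set against WT lungs in normoxia to find the change of the collagen genes in the early phase of the model. The normoxia lungs are labelled day 0, so the day and SuHx differ together and cannot be told apart. The fibrillar genes Col1a1, Col5a1, Col5a3 and Col27a1 rose, as did both chains of the common basement membrane collagen, Col4a1 and Col4a2, the 3 main type VI chains, Col8a1 and Col16a1. Col6a4 fell. In all 11 of 42 members were called higher and 1 lower, where 7.08% of all rows were called higher and 6.39% lower. The median log2 fold change of the members was 0.249 and that of all rows -0.045. By class, 4 of 11 fibrillar, 2 of 8 basement membrane and 5 of 23 other members rose, and the gene that fell was of the other types.

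Col5a3 had the largest rise of the 42 members, to 1179, 1513 and 1492 in WT SuHx lungs, against 172, 136 and 287 in normoxia lungs, 7.32-fold higher (log2 fold change 2.87 ± 0.25, limma, adjusted p = 0.000326). Col1a1 reached 30925, 28633 and 23606 in WT SuHx lungs, against 9834, 5590.3 and 14203 in normoxia lungs. It was 2.99-fold higher (log2 fold change 1.58 ± 0.29, limma, adjusted p = 0.00901), with all SuHx libraries above all normoxia libraries. Col5a1, the α1 chain of type V, had 6096, 6489 and 4628 in WT SuHx lungs and 3285, 3035 and 3151 in normoxia lungs (1.80-fold, limma, adjusted p = 0.00345). Col27a1 rose 2.24-fold in WT SuHx over normoxia lungs (limma, adjusted p = 0.00106), with the values given above. These 4 fibrillar calls held in every alternative without a floor on the fold change. With a floor of 1 on the log2 scale, Col5a1 was below it.

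Col3a1 and Col5a2 did not pass the test. Col3a1 had 99398, 96057 and 71258 in WT SuHx lungs, against 62867, 52409 and 51266 in normoxia lungs, without overlap (log2 fold change 0.67 ± 0.23, limma, adjusted p = 0.0790). Col5a2, the α2 chain of type V, had 14847, 15588 and 12224 in WT SuHx lungs, against 11984, 10285 and 10327 in normoxia lungs, again without overlap (log2 fold change 0.38 ± 0.12, limma, adjusted p = 0.0706). Col1a2, the partner chain of Col1a1 in type I collagen, was erratic in the table. Its signal was 314, 139.9 and 253 in Ahr-KO SuHx, 838, 369 and 256 in WT SuHx and 2496, 162 and 230.1 in normoxia lungs, so that normoxia library 0 alone set the mean of its group, and no comparison called it. The ratio of the Col1a1 to the Col1a2 signal ran from 3.94 to 264 over the 9 lungs, although the type I helix joins both chains in a fixed proportion. The labels do not say how reads of this row were counted, and the Col1a2 values are uncertain.

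Among basement membrane members, Col4a1 had 55540.2, 62035 and 43736 in WT SuHx lungs, against 32298, 25458 and 26666 in normoxia lungs (1.90-fold, log2 fold change 0.93 ± 0.21, limma, adjusted p = 0.0193). Col4a2 had 34418, 37191 and 24128 in WT SuHx lungs, against 21694, 18037 and 18249 in normoxia lungs (1.63-fold, limma, adjusted p = 0.0472). The call of Col4a2 was lost in 11 of 18 alternatives, with log2 fold changes of 0.58 to 0.89 over all of them. Both genes share the space between their starts and are read in opposite directions. That stretch of 76 bases, RefSeq on GRCr8, is shown because both genes were called higher in 3 of the 4 comparisons. The capitals mark CCGCCC, the reverse complement of GGGCGG, a GC box of the kind bound by Sp1, which 30.5% of all promoters in the table hold on either strand.
Col4a1 and Col4a2, chr16:84885521-84885596, plus strand: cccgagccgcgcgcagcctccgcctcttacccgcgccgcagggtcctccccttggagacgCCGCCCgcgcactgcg
The Col4a3 to Col4a6 chains were not called. Col4a3 had 2732, 3313 and 770.5 in WT SuHx lungs, against 4409, 5686 and 2027 in normoxia lungs, and overlapped (log2 fold change -0.95 ± 0.55, limma, adjusted p = 0.257). Col4a4 ran from 8867 to 16472 in WT SuHx and from 10565 to 18146 in normoxia lungs. Col4a5 ran from 5748 to 10455 in WT SuHx and from 5676 to 7857 in normoxia lungs, and Col4a6 from 542 to 1359.9 in WT SuHx and from 787 to 1468 in normoxia lungs, so that all 3 overlapped. Library 2 was the lowest of its group for all 4 chains in WT SuHx and in normoxia. Col18a1, whose product releases endostatin, had 4627, 4408 and 3227 in WT SuHx lungs, against 2832, 2375 and 2706 in normoxia lungs, without overlap (log2 fold change 0.62 ± 0.19, limma, adjusted p = 0.0608). Col15a1, the related chain of vessel and muscle basement membranes, had 149, 32.9 and 209 in WT SuHx lungs and 156, 60.5 and 50.6 in normoxia lungs and was not called.

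**Figure D2:**
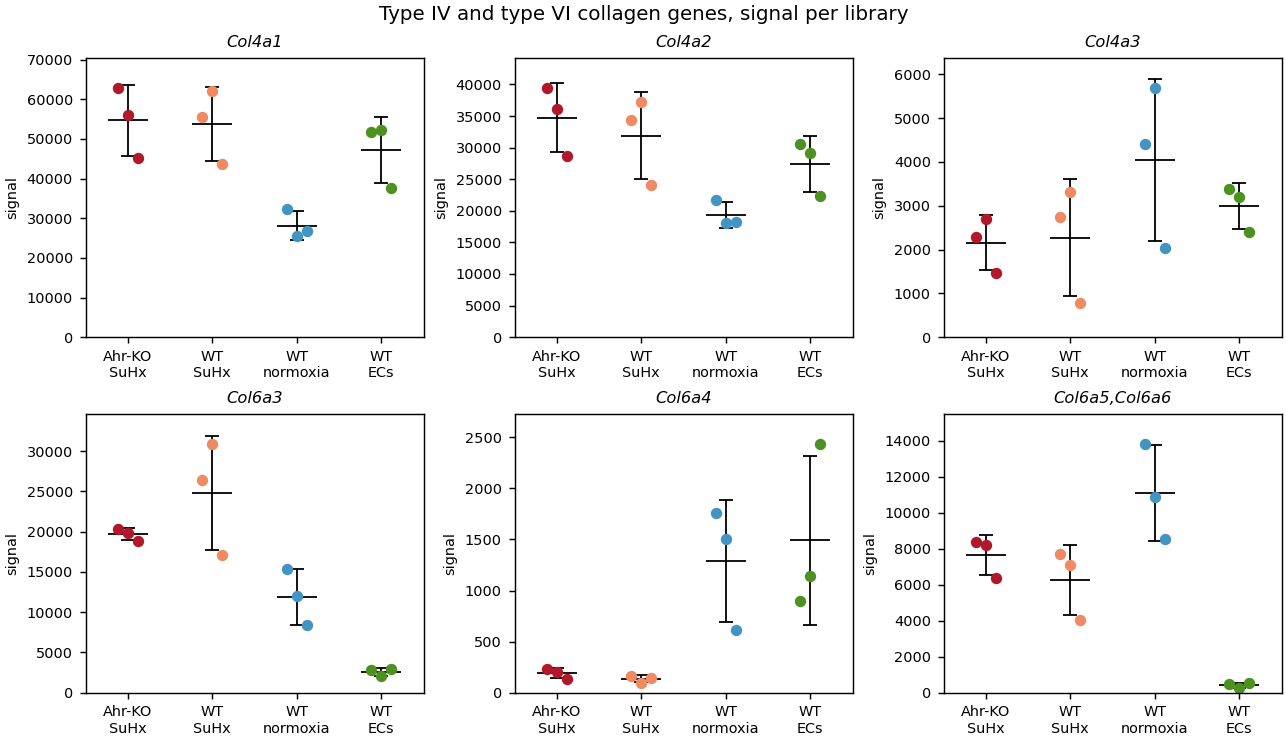
Signal of 3 type IV and 3 type VI rows in each library. Points are libraries, horizontal bars the mean and vertical bars the SD of 3 libraries, with Ahr-KO SuHx lung, WT SuHx lung, WT normoxia lung and WT ECs along the x axis. Col4a1 and Col4a2 lie above normoxia lung in both SuHx groups and in ECs, Col6a4 is at 237 or lower in all 6 SuHx libraries, and Col6a3 and the Col6a5,Col6a6 row are low in ECs.

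Type VI moved in both directions. Its main chains rose: Col6a3 had 26385, 30937 and 17117 in WT SuHx lungs, against 15389, 11988 and 8406 in normoxia lungs (2.08-fold, limma, adjusted p = 0.0263). Col6a2 had 20186, 17701 and 16548 in WT SuHx lungs, against 13064, 9939 and 10226 in normoxia lungs (1.65-fold, limma, adjusted p = 0.0135). Col6a1 had 20104, 17724 and 15118 in WT SuHx lungs, against 13784, 10981 and 10717 in normoxia lungs (1.49-fold, limma, adjusted p = 0.0417), a call lost in 9 of 18 alternatives. For each of these 3 chains every WT SuHx library was above every normoxia library. Col6a4, a chain that takes the place of Col6a3 in the helix, fell to 163, 97.1 and 146 in WT SuHx lungs, against 1757, 1500.1 and 618 in normoxia lungs, 8.85-fold lower (log2 fold change -3.14 ± 0.39, limma, adjusted p = 0.00130). This call held in all 18 alternatives. The row that merges Col6a5 with Col6a6, likewise alternatives to Col6a3, had 7704, 7103 and 4071 in WT SuHx lungs, against 13855, 10885 and 8553 in normoxia lungs. It did not overlap between the groups and was not called (log2 fold change -0.84 ± 0.26, limma, adjusted p = 0.0567). A row of Col6a5 alone held 5.96 to 23.6 in WT SuHx and 26.1 to 47.7 in normoxia lungs and was not called either. Col6a4, Col6a5 and Col6a6 are neighbours on the chromosome, and reads may be shared between these similar genes, so the split of signal among their rows is uncertain.

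Col8a1, a short-chain collagen of vessel walls, had 378, 502 and 344 in WT SuHx lungs, against 177, 154 and 285 in normoxia lungs (2.03-fold, limma, adjusted p = 0.0235). Col16a1 had 8069, 7443 and 10291 in WT SuHx lungs and 5897, 5036 and 3656 in normoxia lungs (1.79-fold, limma, adjusted p = 0.0207). The groups did not overlap for either gene. Col10a1, a short-chain collagen known from growth cartilage, had low values, 5.68, 10.7 and 11.2 in WT SuHx and 22.3, 22.8 and 25.3 in normoxia lungs, and was not called (limma, adjusted p = 0.0527). The FACIT genes Col12a1 and Col14a1, the membrane collagen Col13a1 and the Arfgap1,Col20a1 row were not called, with log2 fold changes of 0.21 ± 0.26, 0.09 ± 0.16, -0.02 ± 0.11 and 0.00 ± 0.08 in that order. Several of the 11 calls were lost when 1 library was left out: 4 were called without WT SuHx library 0, 6 without normoxia library 1 and 7 without WT SuHx library 1. A smaller group also weakens the test, and none of the 11 changed direction in any alternative. The summed smooth muscle and pericyte markers were 49408 to 71784 in WT SuHx lungs and 27952 to 38429 in normoxia lungs, with 5 of 12 higher and 1 lower. The fibroblast markers were 33405 to 37812 in WT SuHx and 27944 to 33217 in normoxia lungs, with 3 of 12 higher. The 3 include Meox1, which was also higher in ECs than in normoxia lungs (log2 fold change 3.17 ± 0.30), so it did not mark fibroblasts alone. The part of both lists in the collagen rises was not tested. Among the other lists, 1 of 12 endothelial markers rose and 3 fell, 2 of 12 alveolar markers fell, and 1 of 12 airway markers rose and 1 fell in WT SuHx over normoxia lungs. Of 11 cardiac, 6 mesothelial and 9 tested leukocyte markers limma called 0 there, with 2 mesothelial markers lower and 2 leukocyte markers higher at an unadjusted p under 0.05.

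Ahr-KO SuHx lungs were next compared with the same normoxia lungs, so this comparison shares the normoxia libraries with the one before. The genotype, SuHx and the labelled day differ together in it. Here Col1a1, Col5a1, Col5a3, Col4a1 and Col4a2 rose and Col6a4 fell. These were 5 members higher and 1 lower of 42, where 5.95% of all rows were called higher and 3.8% lower. The median log2 fold change was 0.0649 over the members and -0.033 over all rows. Col1a1 had 36666, 37002 and 44658 in Ahr-KO SuHx lungs, 4.26-fold above normoxia (log2 fold change 2.09 ± 0.29, limma, adjusted p = 0.00228), beside 2.99-fold in WT SuHx lungs. Col5a1 had 6029, 6064 and 6788 in Ahr-KO SuHx lungs, 1.99-fold above normoxia (limma, adjusted p = 0.00141). Col4a1 had 62840.1, 55996 and 45121 (1.93-fold, limma, adjusted p = 0.0202), and Col4a2 39445, 36052 and 28738 (1.79-fold, limma, adjusted p = 0.0304). The 3 Ahr-KO libraries lay above all normoxia libraries for each of these 4 genes. Of the 5 rises, 2 were called without normoxia library 1, and likewise 2 without Ahr-KO library 0 and 2 without Ahr-KO library 1. The summed smooth muscle and pericyte markers were 48290.0 to 73302 in Ahr-KO SuHx and 27952 to 38429 in normoxia lungs, and the fibroblast markers 37738 to 47385 in Ahr-KO SuHx and 27944 to 33217 in normoxia lungs, with 5 of 12 higher and 1 lower in the first list and 4 of 12 higher in the second. The 4 again include Meox1. The part of both lists in these rises was not tested. Of the endothelial markers 1 of 12 was higher and 4 were lower in Ahr-KO SuHx than in normoxia lungs, and of the airway markers 1 of 12 was higher and 1 lower. Of 12 alveolar markers 1 was called lower and 9 were lower at an unadjusted p under 0.05, with sums of 486287 to 523179 in Ahr-KO SuHx and 546611 to 803296 in normoxia lungs. Of 11 cardiac markers limma called 0, with 5 higher at an unadjusted p under 0.05 and sums of 5904 to 27946 in Ahr-KO SuHx and 892 to 12701 in normoxia lungs. The part of these lists was not tested either.

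Col5a3 was 1.87-fold above normoxia in Ahr-KO lungs (log2 fold change 0.90 ± 0.25, limma, adjusted p = 0.0499), a call at the threshold that was lost in 15 of 18 alternatives. In WT SuHx lungs the same gene was 7.32-fold above. Col27a1 and Col16a1, called in WT SuHx lungs, stood at log2 fold changes of -0.14 ± 0.14 and 0.01 ± 0.19 against normoxia in Ahr-KO lungs, with overlapping values and adjusted p of 0.557 and 0.982 in limma. The difference between the genotypes is the direct comparison given first, which called Col27a1 and not Col16a1. Col6a4 had 237, 201 and 135 in Ahr-KO SuHx lungs, 6.30-fold below normoxia (log2 fold change -2.65 ± 0.39, limma, adjusted p = 0.00289). The main type VI chains were not called in Ahr-KO lungs. Col6a1 had 16635, 16178 and 13192 in Ahr-KO SuHx lungs (log2 fold change over normoxia 0.38 ± 0.16), Col6a2 15364, 16413 and 13541 (0.45 ± 0.14) and Col6a3 20365, 19834 and 18864 (0.77 ± 0.25). Against WT SuHx lungs these 3 chains differed by -0.20 ± 0.16, -0.26 ± 0.14 and -0.29 ± 0.25 on the log2 scale, not called either, so a difference between the genotypes was not shown for them.

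**Figure D3:**
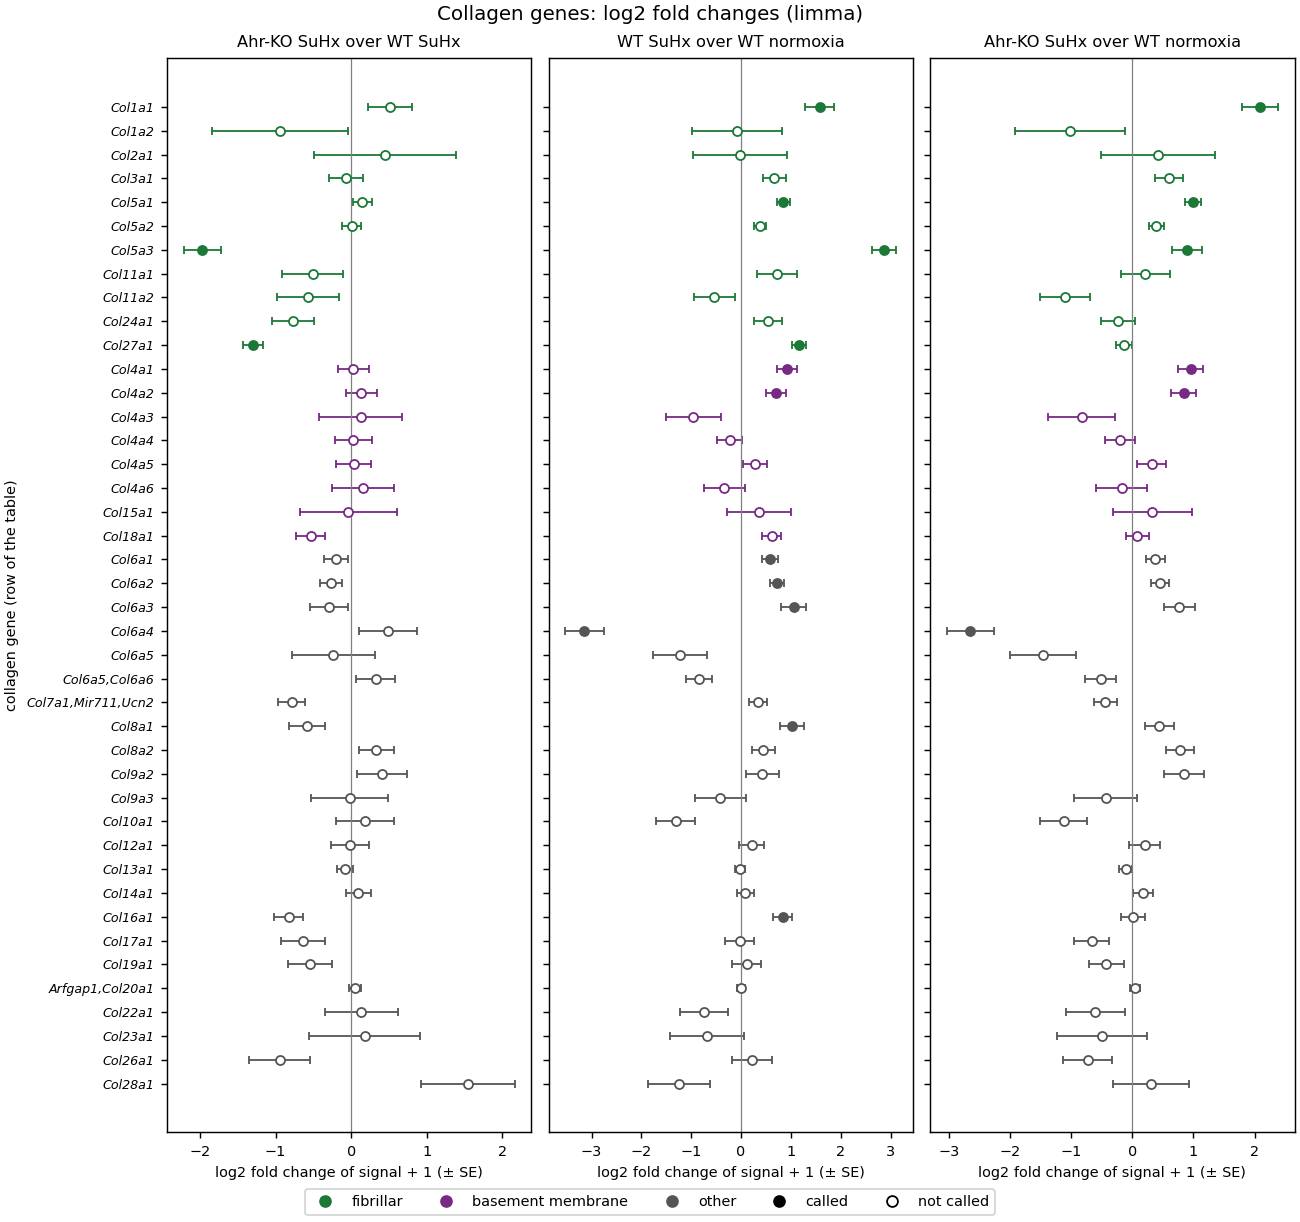
Log2 fold change with SE of the 42 collagen rows tested in lung, for Ahr-KO SuHx over WT SuHx, WT SuHx over WT normoxia and Ahr-KO SuHx over WT normoxia. Rows run down the page by class, and filled points were called at an adjusted p under 0.05. Col5a3 and Col27a1 are the filled points in the first panel, and Col6a4 is far to the left in the other panels.

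The remaining type IV, XV and XVIII members in Ahr-KO lungs were close to one or both of the other groups. Col4a3 had 2289.7, 2699 and 1464, Col4a4 12897, 12465 and 12809.9, Col4a5 8712, 10022 and 7373 and Col4a6 1210.3, 1471 and 593 in Ahr-KO SuHx lungs, all overlapping with WT SuHx lungs. Col18a1 had 3430.3, 2985 and 2110.0 in Ahr-KO SuHx lungs, against 4627, 4408 and 3227 in WT SuHx lungs, and overlapped (log2 fold change -0.54 ± 0.19, limma, adjusted p = 0.273). Col15a1 had 120.0, 89.4 and 88.9 in Ahr-KO and 149, 32.9 and 209 in WT SuHx lungs. Col3a1 was at 0.60 ± 0.23 and Col5a2 at 0.39 ± 0.12 over normoxia on the log2 scale, not called.

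The share of each library's total signal that fell on the collagen rows puts these genes together, as a description with no test. All 43 members took 1.64% ± 0.0183 of the signal in Ahr-KO SuHx lungs, 1.64% ± 0.275 in WT SuHx lungs, 1.04% ± 0.132 in normoxia lungs and 0.571% ± 0.0714 in ECs (SD, n = 3 each). Fibrillar members took 0.644, 0.646 and 0.802% in Ahr-KO SuHx, 0.726, 0.708 and 0.539% in WT SuHx and 0.422, 0.316 and 0.378% in normoxia lungs. Basement membrane members took 0.622, 0.577 and 0.478% in Ahr-KO SuHx, 0.573, 0.638 and 0.410% in WT SuHx and 0.398, 0.346 and 0.315% in normoxia lungs. In both classes every SuHx library of either genotype was above every normoxia library, and the genotypes overlapped. Other members took 0.393, 0.402 and 0.352% in Ahr-KO SuHx, 0.478, 0.470 and 0.373% in WT SuHx and 0.370, 0.303 and 0.264% in normoxia lungs, where Ahr-KO SuHx and normoxia lungs overlapped and every WT SuHx library was above normoxia. Col1a1 with Col3a1 made up most of the fibrillar share (0.549% ± 0.0903 in WT SuHx lungs), and Col4a1 with Col4a2 most of the basement membrane share (0.403% ± 0.0765).

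Ratios of chains within a library show where members of a type moved apart. They compare libraries only, since signal grows with transcript length and is no molar ratio. The ratio of Col5a3 to Col5a1 was 0.0637, 0.0615 and 0.0451 in Ahr-KO SuHx lungs, 0.193, 0.233 and 0.322 in WT SuHx lungs and 0.0523, 0.0447 and 0.0910 in normoxia lungs. WT SuHx lungs were thus above both other groups without overlap. Col1a1 to Col3a1 was 0.469, 0.477 and 0.458 in Ahr-KO SuHx lungs, 0.311, 0.298 and 0.331 in WT SuHx lungs and 0.156, 0.107 and 0.277 in normoxia lungs, 3 groups without overlap. Col8a1 to Col8a2 was 0.625, 0.660 and 0.647 in Ahr-KO and 0.909, 1.45 and 1.35 in WT SuHx lungs, again apart, and 0.594, 0.870 and 1.05 in normoxia lungs. By contrast Col6a1 to Col6a2 stayed between 0.914 and 1.10 in all 9 lungs. The Col6a5,Col6a6 row to Col6a1 was 0.503, 0.507 and 0.482 in Ahr-KO SuHx, 0.383, 0.401 and 0.269 in WT SuHx and 1.01, 0.991 and 0.798 in normoxia lungs. None of these ratios was tested, and with 3 libraries a group an exact permutation test could not go below 0.10.

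**Figure D4:**
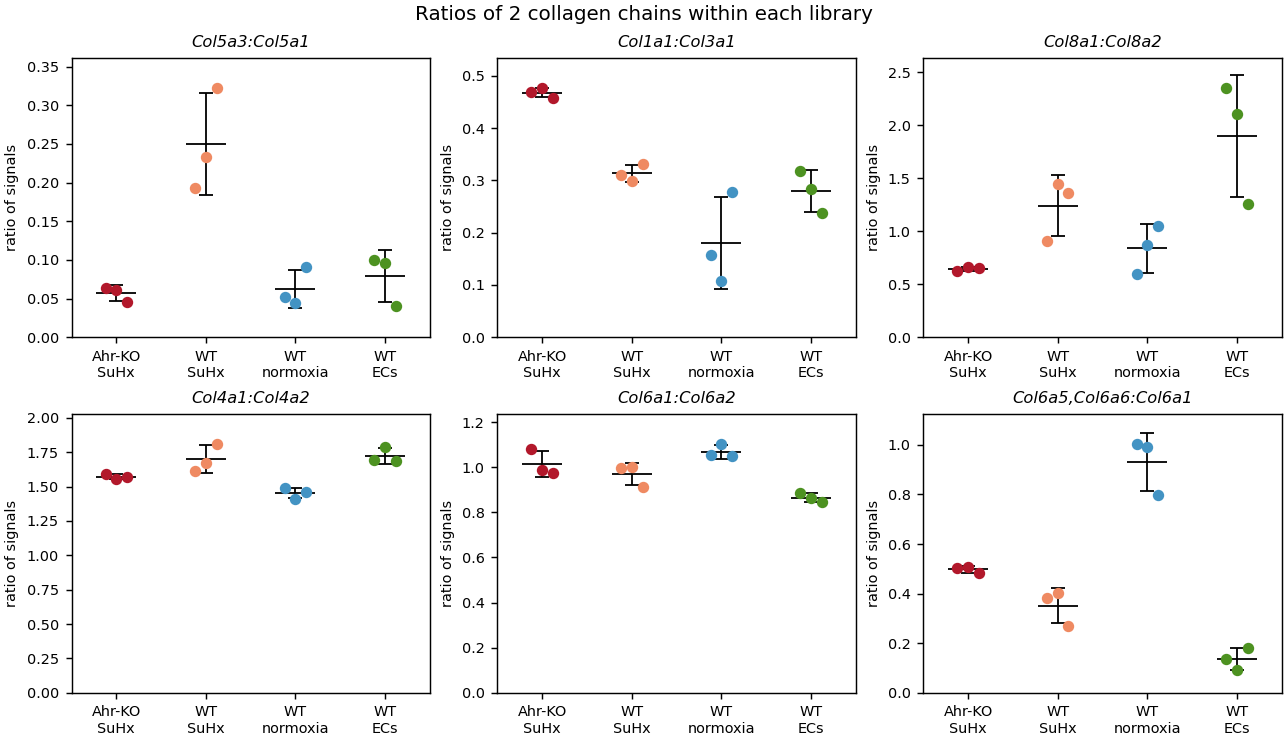
Ratio of the signals of 2 collagen rows within each library, for 6 pairs. Points are libraries, horizontal bars the mean and vertical bars the SD of 3 libraries, with Ahr-KO SuHx lung, WT SuHx lung, WT normoxia lung and WT ECs along the x axis. Col5a3:Col5a1 is high in WT SuHx lung, and Col1a1:Col3a1 is at 0.468 on average in Ahr-KO and 0.313 in WT SuHx lung.

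WT ECs were set against WT normoxia lung to see which collagen genes the endothelium carries relative to the whole organ. Type IV chains Col4a1 and Col4a2 were higher in ECs, and 21 of the 43 members were lower, among them Col1a1, Col3a1, Col6a1, Col6a2 and Col6a3. The calls of Col4a1 and Col4a2 were both lost under quantile normalization. Col9a1 was called higher as well, but Col9a1, Col6a5 and Col26a1 reached a mean of 1 in only 1 of the 2 groups, so that the filter fixed their direction. Of the 40 members at or above 1 in both groups, 2 were higher and 19 lower. In all 24 of 43 members were called, where 56.2% of the 15186 rows tested were called, and 26.1% of rows were called higher and 30.1% lower. The median log2 fold change was -0.586 over the members and -0.053 over all rows. By class, 4 of 11 fibrillar, 3 of 8 basement membrane and 14 of 24 other members were lower. All 12 endothelial markers were higher in ECs, with a sum of 330078 to 404358 in ECs and 118092 to 123343 in normoxia lungs. ECs also held signal of other cells: 7 of 9 tested leukocyte markers were higher there and 1, Lyz2, was lower. The leukocyte list without Lyz2 summed to 18063 to 24924 in ECs and 6403 to 9021 in lung. The alveolar markers, all 12 lower in ECs, still summed to 123219 to 268995 there, against 546611 to 803296 in lung. The part of these cells in the EC collagen values was not tested.

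Col4a1 had 51792, 52214 and 37638 in ECs, against 32298, 25458 and 26666 in normoxia lungs (1.67-fold, log2 fold change 0.74 ± 0.19, limma, adjusted p = 0.0134). Under quantile normalization its log2 fold change was 0.39 (limma, adjusted p = 0.102), and without EC library 1 it was 0.66 (limma, adjusted p = 0.0519), so that the call was lost in 2 of 14 alternatives. Col4a2 had 30544, 29201 and 22312 in ECs, against 21694, 18037 and 18249 in lung (1.41-fold, limma, adjusted p = 0.0362), every EC library above every lung library. The call of Col4a2 held in 7 of 14 alternatives. Its direction turned under quantile normalization, to a log2 fold change of -0.044, so both type IV calls depended on the scaling. The network chains of alveolar membranes were lower: Col4a5 had 2933, 2271 and 2743 in ECs, against 7489, 7857 and 5676 in lung (2.63-fold lower, limma, adjusted p = 0.000317), and Col4a4 had 9057, 6840.2 and 6453 in ECs, against 16336, 18146 and 10565 in lung (1.99-fold lower, limma, adjusted p = 0.00812). Col4a3, with 3392, 3201 and 2396 in ECs, and Col4a6, with 1108, 1058 and 784, were not called. Col18a1 was lower, at 1382, 1463 and 2032 in ECs, against 2832, 2375 and 2706 in lung (1.64-fold, limma, adjusted p = 0.00672). Col15a1 spread widely, with 611, 233 and 111 in ECs and 156, 60.5 and 50.6 in lung, and was not called (log2 fold change 1.67 ± 0.66, limma, adjusted p = 0.0667).

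Of the fibrillar members, Col3a1 was 3.48-fold lower in ECs, at 20228, 13589 and 14612, against 62867, 52409 and 51266 in normoxia lungs (limma, adjusted p = 0.000272). Col27a1 was 2.22-fold lower, at 216, 176 and 205 in ECs, and Col5a1 1.501-fold lower, at 2251, 1797 and 2295 in ECs (limma, adjusted p = 0.000709 and 0.00356). Col1a1 had 6439.7, 3849 and 3473 in ECs, against 9834, 5590.3 and 14203 in lung. It was called 2.09-fold lower although the groups overlapped (limma, adjusted p = 0.0410), and the call was lost in 6 of 14 alternatives. Col5a2 and Col5a3 were not called: Col5a2 had 13461, 13123 and 12333 in ECs, against 11984, 10285 and 10327 in lung, and Col5a3 225, 172 and 92.4 in ECs, against 172, 136 and 287 in lung. The ratio of Col5a1 to Col5a2 was 0.167, 0.137 and 0.186 in ECs and 0.274, 0.295 and 0.305 in lung. Col1a2 had 691, 633 and 292 in ECs and was not called.

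Of the 6 type VI rows, 5 were lower in ECs, among them the row of Col6a5 alone, whose direction the filter fixed. Col6a3 had 2779, 2045 and 2916 in ECs, against 15389, 11988 and 8406 in normoxia lungs (4.54-fold lower, limma, adjusted p = 0.00029). Col6a1 had 3604, 2992 and 2901 in ECs, 3.73-fold lower, and Col6a2 4069, 3463 and 3436, 3.01-fold lower (limma, adjusted p = 6.14e-05 and 0.000105). The Col6a5,Col6a6 row had 493, 269 and 524 in ECs, against 13855, 10885 and 8553 in lung, 26.4-fold lower (limma, adjusted p = 3.54e-05). The row of Col6a5 alone and Col26a1 were listed at 0 in all 3 ECs, against 26.1 to 47.7 and 5.97 to 9.20 in normoxia lungs. Both were called, in the direction that the filter fixed. For Col6a1, Col6a2, Col6a3 and the Col6a5,Col6a6 row, no EC library reached any lung library. Col6a4 showed no such gap: it had 899, 1141 and 2439 in ECs, against 1757, 1500.1 and 618 in lung, and was not called (log2 fold change 0.21 ± 0.48, limma, adjusted p = 0.738).

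Col13a1, a collagen that spans the cell membrane, had the largest EC difference of the members with signal in all 6 libraries, 77.4, 55.4 and 46.2 in ECs, against 3006, 2622 and 3319 in normoxia lungs, 50.1-fold lower (log2 fold change -5.65 ± 0.20, limma, adjusted p = 7.03e-06). In the lung comparisons the same gene kept to 2573 to 3319 over the 9 libraries. The Col7a1,Mir711,Ucn2 row had 139, 79.5 and 116 in ECs, against 1232, 1411 and 801 in lung (10.2-fold lower, limma, adjusted p = 9.85e-05). The FACIT genes Col16a1, with 1842, 1544 and 1015 in ECs, and Col12a1, with 2906, 2033 and 2723, were 3.35-fold and 2.99-fold lower than in lung (limma, adjusted p = 0.00105 and 0.00220). Col9a2 was lower too, with 24.5, 31.0 and 26.8 in ECs, against 80.7, 125 and 102 in lung, as was Col8a2, with 117, 133 and 144 in ECs, against 298, 177 and 272 in lung (limma, adjusted p = 0.000884 and 0.0134). Col19a1 had 25.05, 43.4 and 18.7 in ECs, against 47.7, 64.8 and 77.5 in lung, and Col22a1 2.28, 3.62 and 2.50 in ECs, against 7.96, 13.6 and 16.9 in lung, both called lower (limma, adjusted p = 0.0321 and 0.00874). The call of Col19a1 was lost in 6 of 14 alternatives. Col9a1, called higher, was at a few reads throughout, 10.2, 2.41 and 4.99 in ECs and 0, 0 and 0.767 in lung. Col14a1 and Col8a1 were not called, with 1384, 1094 and 1410.4 and 276, 278 and 179.7 in ECs. The fibroblast markers summed to 6942 to 7685 in ECs and 27944 to 33217 in lung, with 10 of 12 lower and 1, Meox1, higher. Of 12 smooth muscle and pericyte markers 10 were lower and 1 higher. Of airway markers 7 of 12 and of cardiac markers 2 of 11 were lower in ECs. Of 6 tested cartilage markers 3 were lower and 1 higher, and of 6 mesothelial markers 2 were higher and 1 lower.

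**Figure D5:**
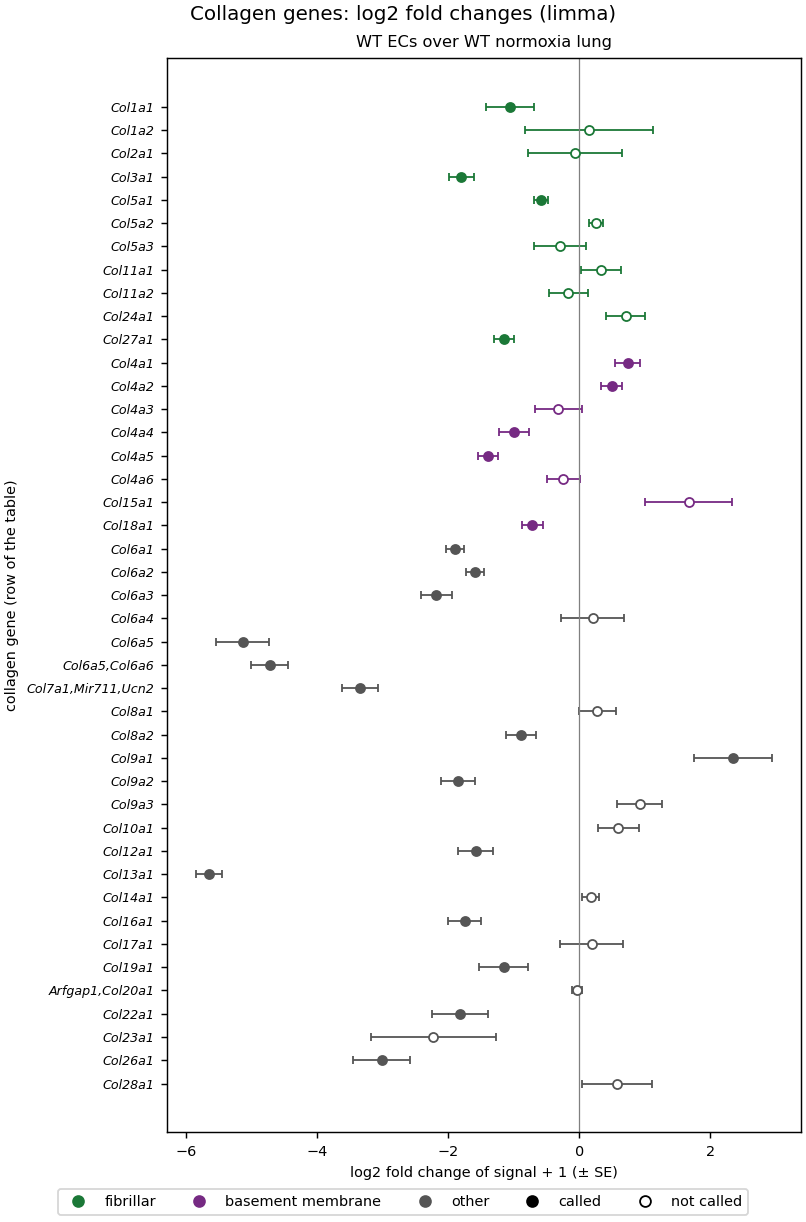
Log2 fold change with SE of the 43 collagen rows in WT ECs over WT normoxia lung. Rows run down the page by class, and filled points were called at an adjusted p under 0.05. Col4a1 and Col4a2 lie right of 0, and Col13a1 and the Col6a5 rows lie farthest left.

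Genes that fold, modify and crosslink collagen were counted from lists of the pathway. Of 22 genes of chain folding and modification, 9 were higher and 1 lower in WT SuHx than in normoxia lungs, and 5 were higher and 0 lower in Ahr-KO SuHx than in normoxia lungs, beside 13.5% and 9.75% of all rows called in either direction. Plod2, which hydroxylates lysines used in crosslinks, had 2326, 1816 and 1678 in WT SuHx lungs, against 854, 650.3 and 887 in normoxia lungs (2.43-fold, limma, adjusted p = 0.00229). P3h1, a prolyl 3-hydroxylase, rose 1.51-fold, Fkbp10, a folding chaperone, 1.70-fold, and Colgalt1, which adds galactose to hydroxylysine, 1.35-fold in WT SuHx over normoxia lungs (limma, adjusted p = 0.00324, 0.00663 and 0.0126). In Ahr-KO SuHx lungs the called genes were Fkbp10, P4ha3, Plod2, P3h1 and Serpinh1, of which Plod2 was 1.99-fold and P4ha3, a prolyl 4-hydroxylase chain, 2.17-fold above normoxia (limma, adjusted p = 0.00786 and 0.00849). P3h2, the prolyl 3-hydroxylase best known for type IV collagen, was the 1 gene of the list that fell in WT SuHx lungs, at 450.3, 353 and 363 against 699, 834 and 554 in normoxia lungs.

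Of 12 tested genes of propeptide removal and crosslinking, 5 rose in WT SuHx over normoxia lungs and none fell. In Ahr-KO SuHx over normoxia lungs 5 rose and 1 fell. Over all rows 7.08% were called higher in the first comparison. In the second 5.95% of all rows were called higher and 3.8% lower. Loxl2, a lysyl oxidase that crosslinks type IV and fibrillar collagen, had 3854, 4372 and 4054 in Ahr-KO SuHx, 3272, 3176 and 2554 in WT SuHx and 1220.4, 1267 and 1298 in normoxia lungs. It was 3.24-fold above normoxia in Ahr-KO and 2.36-fold in WT SuHx lungs (limma, adjusted p = 9.28e-05 and 0.000326). Pcolce, an enhancer of propeptide removal, was 1.77-fold above normoxia in Ahr-KO and 2.18-fold in WT SuHx lungs (limma, adjusted p = 0.00712 and 0.00157). Lox, the lysyl oxidase of fibrillar collagen and elastin, was 3.26-fold above normoxia in Ahr-KO and 2.73-fold in WT SuHx lungs (limma, adjusted p = 0.0115 and 0.0202). The related Loxl1 was 3.23-fold above normoxia in Ahr-KO and 2.84-fold in WT SuHx lungs (limma, adjusted p = 0.0252 and 0.0329). Loxl3, another of this family, rose 1.53-fold in WT SuHx over normoxia lungs (limma, adjusted p = 0.0299). Adamts2, which removes the N-terminal propeptide of fibrillar chains, was 1.89-fold above normoxia in Ahr-KO lungs, while Bmp1, the C-terminal proteinase, was 1.89-fold below (limma, adjusted p = 0.00281 and 0.0335).

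Of 15 other basement membrane genes, 4 rose in WT SuHx over normoxia lungs and 2 in Ahr-KO SuHx over normoxia lungs, and none fell. Over all rows 7.08% were called higher in the first comparison and 5.95% in the second. Lama4, the laminin chain of endothelial membranes, rose 1.69-fold and Nid1, which links laminin to type IV, 1.69-fold in WT SuHx lungs. Lamc1 and Sparc rose 1.55-fold and 1.72-fold there (limma, adjusted p for the 4 from 0.0169 to 0.0498). In Ahr-KO lungs Nid1 was 2.23-fold and Nid2 1.72-fold above normoxia. Among 10 receptors and uptake genes, Lair1 was the 1 called in WT SuHx lungs, lower at 1.89, 1.53 and 5.96 against 13.5, 25.6 and 15.3 in normoxia lungs. None was called in Ahr-KO over normoxia lungs, with 2 higher and 0 lower at an unadjusted p under 0.05. Between Ahr-KO and WT SuHx lungs limma called 0 of the 59 tested genes of these 4 lists. At an unadjusted p under 0.05, 6 of them were higher and 3 lower in Ahr-KO. The share of all rows at this p was not counted, so such counts show no trend of the lists. In ECs against normoxia lung, 4 of 22 folding genes were lower and 3 higher, 9 of 11 crosslinking and processing genes were lower and 2 higher, 5 of 10 receptors lower and 3 higher, and 6 of 15 other basement membrane genes lower and 1 higher. Over all rows 30.1% were lower and 26.1% higher, so that the folding list, at 7 of 22 called, and the other basement membrane list, at 7 of 15, were below the 56.2% of all rows called. P4ha3 was 6.01-fold and P3h2 2.80-fold lower in ECs than in lung, and Colgalt2, a collagen galactosyltransferase, 2.51-fold and the Mir702,Plod3 row 1.51-fold higher (limma, adjusted p from 0.000492 to 0.0193). Adamts2 was 3.37-fold and the related Adamts14 5.36-fold lower in ECs, while Tll1, a proteinase related to Bmp1, was 3.23-fold and Loxl4 2.97-fold higher (limma, adjusted p from 0.000261 to 0.000573). The laminin chains Lamc3 and Lamb1 were 36.2-fold and 2.64-fold lower in ECs, and Nid1 2.78-fold lower (limma, adjusted p from 1.18e-05 to 0.000266). Ddr2, a receptor for fibrillar collagen on mesenchymal cells, was 8.44-fold lower in ECs and Mrc2, which takes up collagen fragments, 7.18-fold lower, while the integrin chain Itga10 was 7.48-fold higher (limma, adjusted p = 5.82e-06, 4.28e-05 and 0.000171). Ddr1, the related receptor of epithelia, was 2.55-fold lower in ECs (limma, adjusted p = 0.000283).

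The members not yet given with values were not called in any comparison. Col11a1 ran from 14.7 to 39.5 in Ahr-KO SuHx, 25.5 to 40.2 in WT SuHx and 14.5 to 22.2 in normoxia lungs. Col11a2, its partner in the type XI fibrils of cartilage, ran from 125 to 212 in Ahr-KO SuHx, 133 to 345 in WT SuHx and 248 to 576 in normoxia lungs. Col17a1, the hemidesmosome collagen of epithelia, ran from 156 to 191 in Ahr-KO SuHx, 219 to 389 in WT SuHx and 209 to 428 in normoxia lungs. Col28a1 was the 1 member higher in Ahr-KO than in WT SuHx lungs at an unadjusted p under 0.05, with 6.19, 1.77 and 12.9 in Ahr-KO and 0.946, 0.765 and 2.23 in WT SuHx lungs, values that overlapped. Col9a3, Col23a1 and Col24a1 stayed below 100 in all 12 libraries.

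The spread between libraries sets what these groups of 3 could show. Over the 31 members with a mean of at least 100, the median coefficient of variation was 12.4% in Ahr-KO SuHx, 17.96% in WT SuHx and 23.9% in normoxia lungs and 18.03% in ECs. It was highest for Col1a2 in normoxia lungs, at 138%, and for Col15a1 in ECs, at 82.0%. Members at a few reads, such as Col2a1, Col9a1, Col22a1, Col26a1 and Col28a1, are too shallow for a lack of a call to be read.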

How the data were processed

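Sequencing of RNA from rat lung and endothelial cells (ECs) gave 12 libraries, 3 in each of 4 groups. The authors deposited 1 table of 19230 gene symbol rows, whose values are a signal, neither whole counts nor scaled to a common total: it behaves like an estimated count scaled by a constant of the library. Low values move in steps of 1 read, and 79.4% to 81.2% of the positive values come within 0.05 of whole reads, at 20.0 M to 28.6 M reads per library. Build rn6 and FastQC are named per the submitters' processing notes. The sources used here name no aligner, counter, scaling method or strandedness. Related or overlapping genes may therefore share reads, and lung and EC levels rest on the authors' scaling.

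Columns were tied to groups by their names. Their suffixes, 0 to 2, match no number in the sample titles, so a library is named by its group and suffix. Nothing says that replicates are separate animals, and p-values measure the spread between these samples, which may be technical. The test was limma 3.58.1 (R 4.3.3, moderated with a trend, two-sided) on log2(signal + 1), for rows that averaged 1 or more in the libraries of the fit, since scaled values do not suit a count model. A fit of the 9 lung libraries gave the lung comparisons, and a fit of 6 libraries that of ECs with normoxia lung. Calls needed an adjusted p (Benjamini-Hochberg, all rows of the fit) under 0.05. For counts at an unadjusted p under 0.05, and for counts without overlap, the share over all rows was not counted. The fit was also run on simulated whole counts with the same spread setting for all genes. These differ from the signal used here, so that run does not measure how often calls in these data are wrong.

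Of the 43 collagen rows, 42 were tested in lung, Col9a1 being below the filter there, and 43 in the EC fit. Every called member is named, as is every member of types I, III, IV, V, VI, XV and XVIII, and of the 4 pathway lists the up to 4 called genes with the smallest adjusted p in each comparison with normoxia. Loxl1, Bmp1, Serpinh1 and P3h2 in WT SuHx lungs were added after their values were seen. Marker lists are given by counts and sums, and no gene is named for a list without a call. A gene that this rule names in the EC comparison is not reported here. Of 158 genes in 13 lists of pathways and cell type markers, 156 matched a row. The members, lists and rules were chosen with earlier results of these data known. Promoter sequences came from RefSeq (GRCr8), which held 35 of the member genes. The alternatives were limma without trend, quantile normalization, other filters and a pseudocount of 0.1, fits of other sets of libraries, the suffix as a block, a floor on the fold change, and leaving out libraries.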

Additional observations from a re-analysis of the deposited data

How the results depend on the processing

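Between Ahr-KO and WT SuHx lungs, the 2 lower collagen genes were called in every alternative but 1: without WT SuHx library 2 Col5a3 was lost and 1 gene stayed called. Leaving out 1 library at a time gave 1 to 3 lower genes and 0 higher. For WT SuHx over normoxia lungs the count of higher genes, 11 as reported, ran from 4 to 12 with 1 library left out, and was 4 without WT SuHx library 0, 6 without normoxia library 1 and 7 without WT SuHx library 1. It was 5 with a floor of 1 on the absolute log2 fold change. The count of lower genes, 1 as reported, was 2 without trend, 2 under quantile normalization, 2 with all 12 libraries in the fit and 2 without both normoxia and Ahr-KO libraries 2, and 1 to 2 with 1 library left out. For Ahr-KO SuHx over normoxia lungs the higher genes, 5 as reported, ran from 2 to 7 with 1 library left out, with 2 without normoxia library 1, Ahr-KO library 0 or Ahr-KO library 1 and 3 without normoxia library 0 or WT SuHx library 0, and 1 gene passed the floor of 1. The lower genes, 1 as reported, were 2 under quantile normalization and without both libraries 2, and 1 to 2 with 1 library left out. For ECs over lung the 3 higher genes were 6 under quantile normalization, of which 1 was among the 3, 1 with the floor, and 1 to 5 with 1 library left out (1 without EC library 1, 5 without normoxia library 0). The lower genes, 21 as reported, were 17 with the floor and 19 to 21 in the other alternatives. Col4a2 turned to a log2 fold change of -0.044 under quantile normalization. Leaving the 20 rows of highest mean out of the total makes the total smaller, so the shares rise in every group. The share of other collagen types was then 0.420% in Ahr-KO SuHx, 0.486% in WT SuHx and 0.345% in normoxia lungs. As reported it was 0.382, 0.440 and 0.312% in that order. The causes of the other changes were not tested.

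With the column suffix as a block, 4 genes were lower in WT SuHx than in normoxia lungs, and 8 were higher and 4 lower in Ahr-KO SuHx than in normoxia lungs. For WT SuHx over normoxia, the block raised the calls over all rows from 1079 to 1546 higher and from 973 to 1839 lower. Correlations of the deviations of libraries with the same suffix ran from -0.0384 to 0.215, and with different suffixes from -0.2 to 0.178. The pair of libraries 2 had the highest value in each comparison, 0.0927 to 0.215. The suffixes match no sample title, so no pairing was assumed. A structure shared by libraries 2 was not excluded.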
